A study of Mus musculus with 113 samples.

Results

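The 10 genes examined here encode alternative subunits of the mouse BAF chromatin remodelling complex, and were taken by their symbols from the 4 deposited gene tables. They are Smarca4, Smarca2, Smarcc1, Smarcc2, Actl6a, Actl6b, Phf10, Dpf2, Dpf1 and Dpf3, 10 of the 23739 genes that the 4 tables list together. All 10 have a row in the tables of SFEB populations, of adherent monoculture and of E14 cells, and 8 have one in the single-cell table, which holds neither Actl6b nor Dpf3.

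BAF complexes are the mammalian relatives of the yeast SWI/SNF complex and use ATP to slide or evict nucleosomes. Several positions in the complex can be filled by either of 2 or more related proteins, and mouse embryonic stem cells (mESCs), neural progenitors and post-mitotic neurons are known to assemble different sets. In ES cells the complex is known to be built on Smarca4 (Brg1) and Smarcc1 (BAF155), Smarcc2 (BAF170) enters it in progenitors, and on leaving the cell cycle neurons exchange Actl6a (BAF53a) for Actl6b (BAF53b) and Phf10 and Dpf2 (BAF45a and BAF45d) for Dpf1 and Dpf3 (BAF45b and BAF45c).

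Of the 113 samples, 22 were populations of R1 mESCs differentiated as floating aggregates in serum-free medium (SFEB), sampled from 0 to 216 h in a first series of 14 samples and a parallel series of 8. Another 64 were single SFEB cells, picked by hand, 8 at each of 8 time points from 0 to 216 h, and 15 were R1 populations from 0 to 216 h in adherent monoculture, a monolayer neural differentiation. The other 12 were E14 mESCs, wild-type (WT) or with a CRISPR/Cas9 deletion in Fyn, a Src family kinase (Fyn KO), at day 0 and day 4 of neural differentiation, with 3 replicates of each. The Fyn KO was 1 clone that lost the part of the gene holding the initiation codon. R1 cells had been grown on feeder cells and were passaged once without them before differentiation. Each population time point was 1 sample in each series, with 0 h sampled in both SFEB series, so change with time was tested as a trend, whereas WT and KO were tested as groups. Nothing says that replicates of E14 came from separate cultures, so their p-values measure only the spread between these libraries. The p-values and standard errors of the time trends treat samples as independent. They measure scatter about a line within these courses, not the spread between repeated differentiations.

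Labelled identities were checked against markers. Summed over 9 neuron markers (Tubb3, Dcx, Stmn2 and others), the level went from 153 and 186 FPKM in the SFEB samples of 0 h to 1167 at 216 h, and from 283 to 1142 FPKM in adherent monoculture. The sum of fibroblast collagens and other feeder markers was 947 and 988 FPKM in the SFEB samples of 0 h, 392 at 8 h, 129 at 22 h and 55.8 at 34 h, then at most 70.9 up to 144 h and 116 at 216 h. In adherent monoculture it was 440 FPKM at 0 h and 56.4 at 216 h. The adherent sample of 144 h stood apart: its r with the sample of 140.5 h, over all genes, was 0.967 against 0.992 between 125.5 and 140.5 h, and its mesoderm and endoderm markers summed to 67.4 FPKM against 11.01 at 140.5 h. The same markers summed to 40.5 FPKM in the adherent sample of 216 h, whose r with 140.5 h was 0.974, and to 49.6, 37.6 and 26.9 FPKM in SFEB at 106, 144 and 216 h (parallel series) against 12.1 at 142 h (first series). The 216 h samples behind the late levels given next thus also held more of these markers than the early samples, and their part was not tested. Adherent trends of the members are also given without the 144 h sample. In E14 cells the neuron markers, 10 with Map2, summed to 24.6 to 87.0 FPKM in WT and 122 to 211 in KO at day 0, with no overlap, and to 63.0 to 121 in WT and 55.1 to 70.8 in KO at day 4. Most of the sum at day 0 in KO was Stmn2, at 110 to 168 FPKM against 12.9 to 69.3 in WT, and without it the sums overlapped (11.47 to 54.7 in KO and 11.7 to 34.2 in WT). The neural progenitor markers summed to 2.09 to 11.9 FPKM at day 0 and 10.1 to 182 at day 4, and Dcx, a marker of young neurons, did not exceed 0.522 FPKM in any library. In bulk samples fewer cells of a type and less RNA per cell cannot be told apart.

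Promoters are shown for the 2 members whose exchange is best known, Actl6a and Actl6b, and for Dpf3, whose level was low until late in both courses, as that of Actl6b was. Each runs from 250 bases before to 50 after the RefSeq gene start in GRCm38.p6, and capitals mark CCAAT on either strand, so that ATTGG is the same motif read from the other strand. Actl6a lies at chr3:32708296-32708595 (+), Actl6b at chr5:137553296-137553595 (+) and Dpf3 at chr12:83487687-83487986 (-).
Actl6a: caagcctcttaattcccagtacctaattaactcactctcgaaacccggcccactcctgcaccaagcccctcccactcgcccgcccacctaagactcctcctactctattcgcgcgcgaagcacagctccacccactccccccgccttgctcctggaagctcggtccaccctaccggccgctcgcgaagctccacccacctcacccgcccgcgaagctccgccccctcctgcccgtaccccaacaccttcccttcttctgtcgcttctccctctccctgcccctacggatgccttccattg
Actl6b: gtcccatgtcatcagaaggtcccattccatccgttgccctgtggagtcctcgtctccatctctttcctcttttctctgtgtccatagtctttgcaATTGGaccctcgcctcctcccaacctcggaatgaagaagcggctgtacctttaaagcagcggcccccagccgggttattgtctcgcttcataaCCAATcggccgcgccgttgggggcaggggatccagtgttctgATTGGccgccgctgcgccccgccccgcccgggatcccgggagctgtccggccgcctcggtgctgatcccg
Dpf3: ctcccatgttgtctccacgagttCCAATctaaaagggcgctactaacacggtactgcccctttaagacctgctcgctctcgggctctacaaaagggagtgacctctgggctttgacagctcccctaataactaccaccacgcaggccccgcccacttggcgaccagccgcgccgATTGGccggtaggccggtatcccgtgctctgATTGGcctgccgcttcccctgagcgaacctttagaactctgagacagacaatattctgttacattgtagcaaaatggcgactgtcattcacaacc
The Actl6b promoter held 3 CCAAT matches, beginning at -155, -62 and -20 from the gene start, and that of Dpf3 held 3, at -227, -76 and -45. The Actl6a promoter held 0. Of 32851 promoters of the same length, 37.4% held CCAAT and 96.6% held fewer than 3 matches. Among the other members Dpf1 held 2 and Dpf2 held 1, and Smarca4, Smarca2, Smarcc1, Smarcc2 and Phf10 held 0. The GC box GGGCGG, present in 35.7% of promoters, was found 3 times in Actl6a, 2 times in Actl6b and 1 time in Dpf3. No member promoter held TATAAA (13.6% of promoters) or TTCAGCACC, the left part of the element bound by Rest (0.371% of promoters). A match is a run of letters only, and no binding was measured.

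Time trends were fitted in limma as the slope of log2(FPKM + 1) per 24 h over all genes passing a filter on low values, with Benjamini-Hochberg adjusted p-values and a threshold of 0.05. In SFEB populations 8 members were tested, of which 5 rose (Smarca4, Smarca2, Smarcc2, Phf10 and Dpf2) and 1 fell (Actl6a), beside 35.1% of 13115 genes rising and 27.1% falling. In adherent monoculture 8 were tested, 4 rose (Smarca4, Smarca2, Smarcc2 and Dpf2) and 1 fell (Actl6a), beside 35.2% of 12729 genes rising and 23.4% falling. Actl6b and Dpf3 were below the filter in both tables, since only 6 SFEB samples exceeded 0.5 FPKM for either gene, and 5 and 4 adherent samples, where at least 8 were required. Without the 144 h sample the same 5 adherent members were called, with slopes of 0.25 for Smarcc2 and 0.07 for Dpf2, while Smarcc1 (0.0143, adjusted p = 0.473), Phf10 (0.0097, adjusted p = 0.708) and Dpf1 (-0.08, adjusted p = 0.204) again did not pass. A fit with squared hours, added after the data were seen, called 8 of 8 members in SFEB beside 79.4% of genes and 6 of 8 in adherent culture beside 64.5%. With so many genes passing in these courses, passing the test does not set a member apart, and the sizes and shapes given next carry the description.

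**Figure D1:**
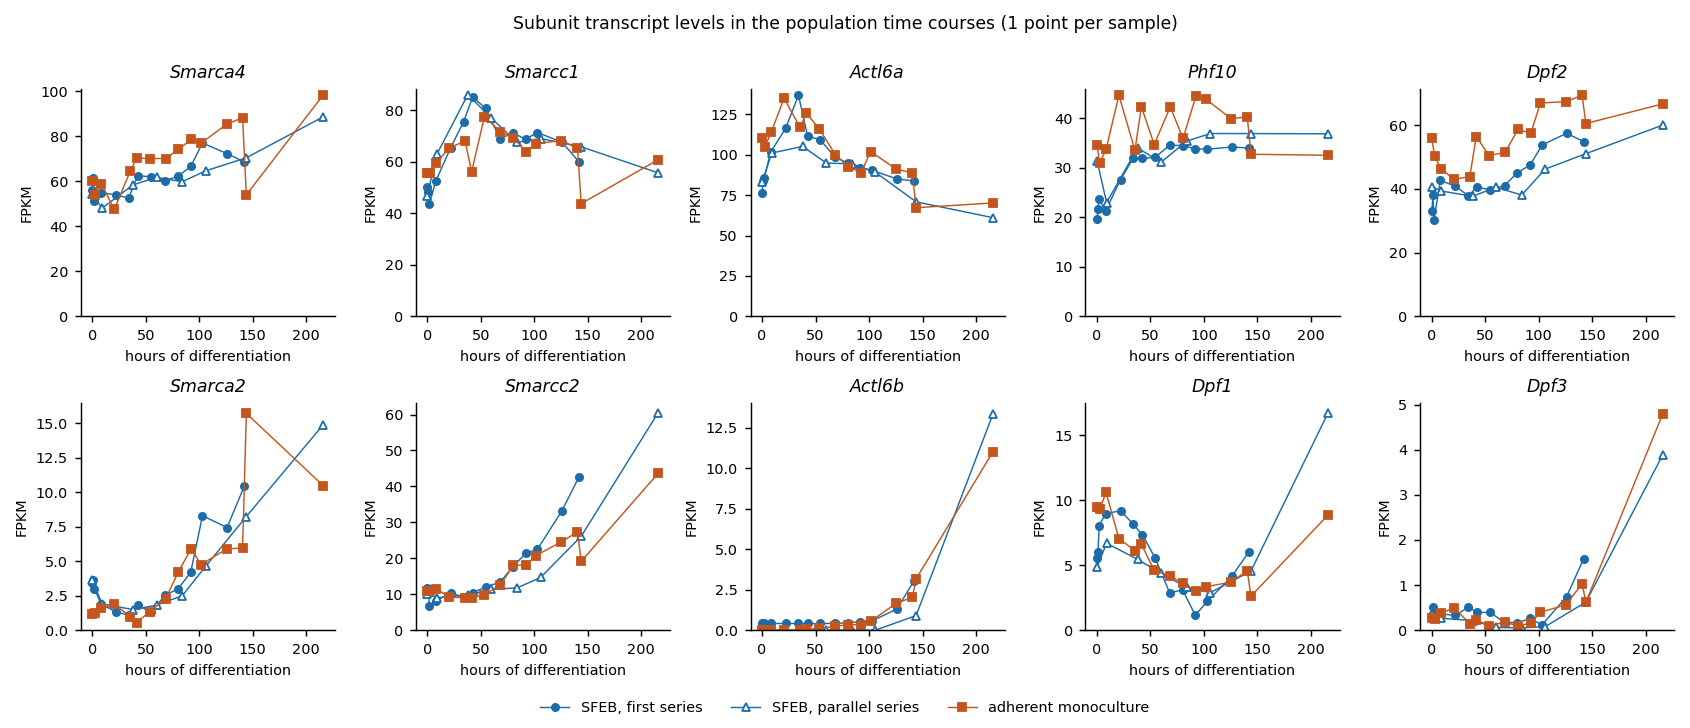
FPKM (y axis, linear from 0) of each member against hours of differentiation (x axis) in the SFEB first series (filled circles), SFEB parallel series (open triangles) and adherent monoculture (squares), with 1 point per sample and no error bars because each time point is 1 sample in each series. Actl6b reached 13.4 FPKM in SFEB and 11.03 FPKM in adherent monoculture at 216 h, and Smarca2 and Smarcc2 also climbed late, while Actl6a peaked early at 137 and 135 FPKM.

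The ATPases came first in the comparison. Smarca4, the main ATPase of the complex in ES cells (mm9 chr9:21420613-21508674, +), was abundant at every time. Over the 22 SFEB samples its lowest, median and highest levels were 48.0 FPKM (9 h), 61.6 and 88.7 FPKM (216 h), and over the 15 adherent samples 47.5 (20.5 h), 70.1 and 98.4 FPKM (216 h). Smarca4 thus had its highest level in the last sample of both courses. Its slope was 0.08 log2 per 24 h (SE 0.011, adjusted p = 1.66e-06) in SFEB and 0.08 (SE 0.021, adjusted p = 0.00376) in adherent culture, where it was 0.10 without the 144 h sample, whose own level was 54.0 FPKM against 88.2 at 140.5 h.

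Smarca2 (Brm, chr19:26679650-26852811, +), the alternative ATPase, was low in early samples and climbed after about 68 h. In SFEB it was 3.43 and 3.64 FPKM at 0 h, reached its lowest level of 1.09 at 34 h, and then went through 2.53 at 68 h, 8.29 at 103 h and 10.4 at 142 h to 14.9 FPKM at 216 h. In adherent monoculture it was 1.14 FPKM at 0 h, 0.544 at 41.5 h, 5.95 at 140.5 h and 10.5 at 216 h, with 15.7 FPKM in the sample of 144 h. The level at 216 h was thus 4.22 times that at 0 h in SFEB and 9.13 times in adherent culture. The slope was 0.27 log2 per 24 h (SE 0.048, adjusted p = 4.95e-05) in SFEB, larger than that of 94.0% of genes tested. In adherent culture it was 0.35 (SE 0.049, adjusted p = 1.79e-05), and 0.31 without 144 h. From 34 h on, a limit set after the data were seen that begins at its lowest sample, the SFEB slope was 0.45. The early SFEB levels of Smarca2 moved with the fibroblast markers given above (947 and 988 FPKM at 0 h against 55.8 at 34 h). In adherent culture Smarca2 at first rose, from 1.14 FPKM at 0 h to 1.87 at 20.5 h. The fibroblast markers were also higher in SFEB at 216 h (116 FPKM, against 44.6 at 144 h), where SFEB Smarca2 was highest. They were not in adherent culture (56.4 at 216 h against 78.2 at 140.5 h), and their part in either was not tested. At 216 h Smarca4 remained the more abundant ATPase, with 88.7 against 14.9 FPKM in SFEB and 98.4 against 10.5 in adherent culture.

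The scaffold subunits Smarcc1 and Smarcc2 hold the core of the complex together. Smarcc1 (chr9:110034541-110142682, +) was 50.3 and 46.9 FPKM at 0 h in SFEB, 86.1 at its highest at 38 h and 55.7 at 216 h. In adherent monoculture its highest level was 77.5 FPKM at 53.5 h and its lowest 43.7 at 144 h. The course was thus a hump, and no linear trend passed the test (SFEB slope 0.03, 95% confidence interval -0.02 to 0.08, adjusted p = 0.341; adherent slope -0.0036, interval -0.05 to 0.04, adjusted p = 0.893). From 34 h on the SFEB slope of Smarcc1 was -0.08 log2 per 24 h, a description only, since that window begins near the highest sample.

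Smarcc2 (chr10:127896292-127927229, +) was between 6.74 and 12.02 FPKM in the SFEB samples up to 60 h. It was 21.4 at 92 h, 33.2 at 126 h, 42.7 at 142 h and 60.5 at 216 h, 5.602 times the level at 0 h. In adherent monoculture it was 10.9 FPKM at 0 h, 27.3 at 140.5 h and 43.7 at 216 h, 4.02 times the level at 0 h. Its slope, 0.31 log2 per 24 h in SFEB (SE 0.026, adjusted p = 2.86e-09), exceeded that of 95.5% of genes tested, and in adherent culture it was 0.23 (SE 0.027, adjusted p = 2.41e-06). Both series showed it alone, with 0.34 in the first and 0.28 in the parallel series. At near hours the parallel series lay lower, with 26.1 FPKM at 144 h against 42.7 at 142 h in the first, and its neuron markers summed to 404 against 708 FPKM. At 216 h the 2 scaffold subunits were at near equal levels in SFEB (55.7 and 60.5 FPKM), whereas at 38 h Smarcc1 had been 86.1 against 9.72 FPKM.

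Actl6a (chr3:32607468-32625890, +) encodes the actin-related subunit of dividing cells. In SFEB it was 76.6 and 83.0 FPKM at 0 h, 137 at 34 h, 83.7 at 142 h and 61.0 at 216 h, and in adherent monoculture 110 FPKM at 0 h, 135 at 20.5 h, 67.2 at 144 h and 70.1 at 216 h. The last sample of SFEB was thus the lowest of its course, 0.765 times the level at 0 h, and the last 2 samples of adherent culture were the lowest of theirs. Actl6a fell by 0.05 log2 per 24 h in SFEB (SE 0.020, adjusted p = 0.0371) and by 0.09 in adherent culture (SE 0.017, adjusted p = 0.000193), and by 0.08 there without 144 h. The SFEB call was lost without the 216 h sample (slope -0.03, adjusted p = 0.26), by rank of hours (adjusted p = 0.211), in the first series alone (-0.02, adjusted p = 0.605) and after quantile normalization (-0.03, adjusted p = 0.144). It was lost when any of 7 of the 22 samples was left out, with adjusted p up to 0.26. From 34 h on the SFEB slope was -0.12, a description only, since that window begins at the highest sample.

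Actl6b (chr5:137994745-138010810, +), the actin-related subunit of neurons, was at the bottom of the scale for most of each course. In the deposited, batch-corrected SFEB values it was 0.411, within 1e-09, in 9 of 14 samples of the first series and -0.245, within the same tolerance, in 4 of 8 of the parallel series, the lowest value of each series. Above that floor it was 1.299 FPKM at 126 h, 3.04 at 142 h and 0.899 at 144 h, and it was 13.4 FPKM at 216 h. In adherent monoculture, with no such floor, it stayed between 0 and 0.0573 FPKM up to 41.5 h, and was 0.245 at 68.5 h, 0.542 at 101.5 h, 2.02 at 140.5 h, 3.17 at 144 h and 11.03 at 216 h. Both courses thus put Actl6b at its highest in the last sample. Without the filter on low values its slope was 0.28 log2 per 24 h in SFEB (SE 0.051, adjusted p = 6.65e-05) and 0.37 in adherent culture (SE 0.038, adjusted p = 8.08e-07), where 35.8% and 36.6% of genes rose, and 0.36 without 144 h. Actl6a was still the more abundant of the pair at 216 h, 61.0 against 13.4 FPKM in SFEB and 70.1 against 11.03 in adherent culture.

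The subunits with PHD fingers, which read histone tails, are Phf10 and the double PHD finger proteins Dpf2, Dpf1 and Dpf3. Phf10 (chr17:15081999-15129820, -) had its lowest SFEB level of 19.6 FPKM at 0 h, a median of 32.9 and a highest level of 36.9 FPKM, and in adherent monoculture it lay between 30.9 and 44.6. It rose in SFEB (slope 0.08, SE 0.018, adjusted p = 0.000478), a call lost in the parallel series alone (0.05, adjusted p = 0.0977). In adherent culture its slope was 0.0025 (interval -0.04 to 0.04, adjusted p = 0.922). The 0 h samples of SFEB differed, with 19.6 FPKM in the first series and 31.5 in the parallel series. Samples of 1 to 22 h held 21.3 to 27.6 FPKM and those from 34 h on 31.1 to 36.9, and from 34 h on the SFEB slope was 0.02 and did not pass (adjusted p = 0.0668).

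Dpf2 (chr19:5896516-5913010, -) went from 32.9 and 40.7 FPKM at 0 h in SFEB to 60.0 at 216 h, and from 56.0 to 66.7 FPKM in adherent monoculture after a lowest level of 43.0 at 20.5 h. It rose in both (SFEB slope 0.09, SE 0.013, adjusted p = 4.27e-06; adherent slope 0.07, SE 0.016, adjusted p = 0.00192). Neither Phf10 nor Dpf2, the members of dividing cells, was at its lowest in the late samples of SFEB.

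Dpf1 (chr7:30088970-30102607, +) had a course shaped like a U. In SFEB it was 5.55 and 4.88 FPKM at 0 h, 9.20 at 22 h, 1.14 at its lowest at 92 h, 6.02 at 142 h and 16.7 at 216 h. In adherent monoculture it was 9.51 FPKM at 0 h, 2.99 at 92.5 h, 4.58 at 140.5 h, 2.61 at 144 h and 8.87 at 216 h. Dpf1 was thus present in the 0 h samples of both courses, which also held the fibroblast markers given above. From 0 to 22 h in SFEB Dpf1 rose while those markers fell, and their part was not tested. In single cells Dpf1 exceeded 0.5 RPKM in 0 of 8 at 0 h, which allows a share of up to 37.5%, and in 3 of 8 at 9 h. Its 216 h level lay below that of 0 h in adherent culture and above it in SFEB. No linear trend passed (SFEB slope -0.03, adjusted p = 0.682; adherent slope -0.10, adjusted p = 0.1), but in the first SFEB series alone, which ends at 142 h, Dpf1 fell by 0.20 (adjusted p = 0.0306). Without the 216 h sample Dpf1 fell, by 0.16 log2 per 24 h in SFEB (adjusted p = 0.0119) and by 0.23 in adherent culture (adjusted p = 6.5e-05).

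Dpf3 (chr12:84314732-84451882, -) did not exceed 0.742 FPKM in any SFEB sample up to 126 h, and was 1.58 at 142 h, 0.622 at 144 h and 3.89 at 216 h. In adherent monoculture it was at most 0.562 FPKM up to 125.5 h, then 1.03 at 140.5 h, 0.617 at 144 h and 4.80 at 216 h. Without the filter its slope was 0.13 in SFEB (adjusted p = 0.00537) and 0.17 in adherent culture (adjusted p = 0.00171), where it was 0.18 without 144 h. In order of level at 216 h in SFEB, the PHD finger subunits were Dpf2 (60.0 FPKM), Phf10 (36.9), Dpf1 (16.7) and Dpf3 (3.89), and in adherent culture the order was the same, with 66.7, 32.5, 8.87 and 4.80 FPKM. The 216 h time point had no replicate, so no spread is known for neighbours in this order.

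To follow the balance within each set, the log2 ratio of (FPKM + 1) was taken, as a description with no test. Actl6a to Actl6b went from a mean of 6.09 at 0 h to 2.11 at 216 h in SFEB and from 6.76 to 2.56 in adherent monoculture, the largest shift of the 4 sets in both courses. Smarcc1 to Smarcc2 went from 2.07 at 0 h through 3.02 at 38 h to -0.12 at 216 h in SFEB, the only ratio to pass below 0, and from 2.25 to 0.47 in adherent culture. Smarca4 to Smarca2 was 3.63 at 0 h, 4.78 at 54.5 h and 2.50 at 216 h in SFEB, and 4.83, 5.53 (41.5 h) and 3.12 in adherent culture. The sum of Phf10 and Dpf2 to that of Dpf1 and Dpf3 was 3.25 at 0 h, 5.10 at 92 h and 2.18 at 216 h in SFEB, and 3.09, 4.63 (92.5 h) and 2.77 in adherent culture. Each ratio was thus at its highest between 20.5 and 92.5 h, and all but the last in adherent culture were lower at 216 h than at any sample before 80 h. The floor of Actl6b in the batch-corrected SFEB values bears on its early ratio, since 0.411 and 0 FPKM differ there by series.

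**Figure D2:**
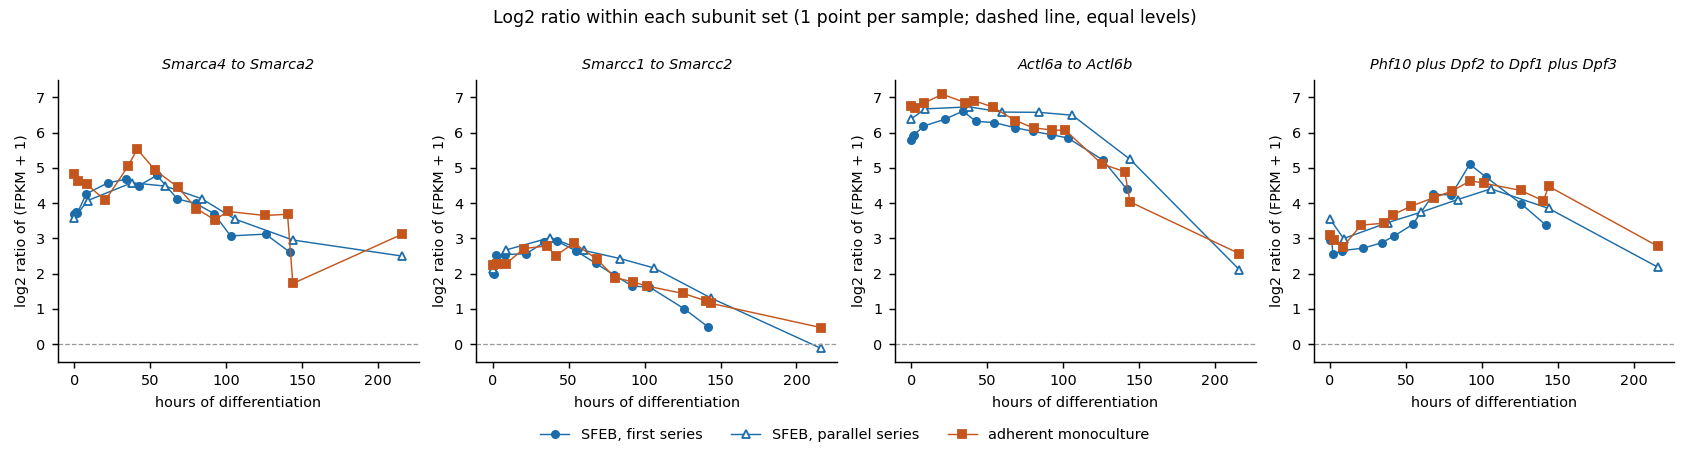
Log2 ratio of (FPKM + 1) within each subunit set (y axis) against hours of differentiation (x axis), for the SFEB first series (filled circles), SFEB parallel series (open triangles) and adherent monoculture (squares), 1 point per sample; the dashed line marks equal levels. Actl6a to Actl6b ended at 2.11 in SFEB and 2.56 in adherent culture, and Smarcc1 to Smarcc2 ended at -0.12 and 0.47.

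The other subunits of the complex form a list of 20 genes, which includes the pair Ss18 and Ss18l1 (CREST), also known to be exchanged in neurons. In SFEB 19 were tested, 10 rose and 1 fell, beside 35.1% of all genes rising and 27.1% falling, with a median slope of 0.10 log2 per 24 h against 0.01 over all genes. In adherent culture 18 were tested, 9 rose and 2 fell, beside 35.2% and 23.4%, with a median of 0.10 against 0.02. Ss18l1 rose in both, by 0.25 and 0.23 log2 per 24 h, from 3.07 FPKM (mean of 0 h) to 15.4 at 216 h in SFEB and from 1.92 to 12.5 in adherent culture. Ss18 had its lowest level at 216 h in both (34.5 and 34.0 FPKM), and fell in adherent culture (-0.08) but missed the threshold in SFEB (-0.04, adjusted p = 0.0849). Smarcd1 rose by 0.07 in both. Smarcd3, the variant of the same position linked to neurons, had slopes of 0.09 and 0.11 that did not pass (adjusted p = 0.391 in SFEB and 0.0757 in adherent culture). Its course was shaped like a U, from 5.29 FPKM (mean of 0 h) through 0.204 at 42.5 h to 11.4 at 216 h in SFEB. In adherent culture Smarcd3 went from 4.69 FPKM through 0.799 at 53.5 h to 6.19 at 216 h, and 216 h was its highest level in both. Smarcd2 fell in both, by 0.12 and 0.07. Smarce1 (BAF57), a shared subunit, rose by 0.23 and 0.20, from 43.4 to 145 FPKM in SFEB. Rest, a repressor of neuronal genes outside the complex, fell by 0.26 and 0.24 log2 per 24 h, from 31.6 to 7.35 FPKM in SFEB and from 25.04 to 7.38 in adherent culture.

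**Figure D3:**
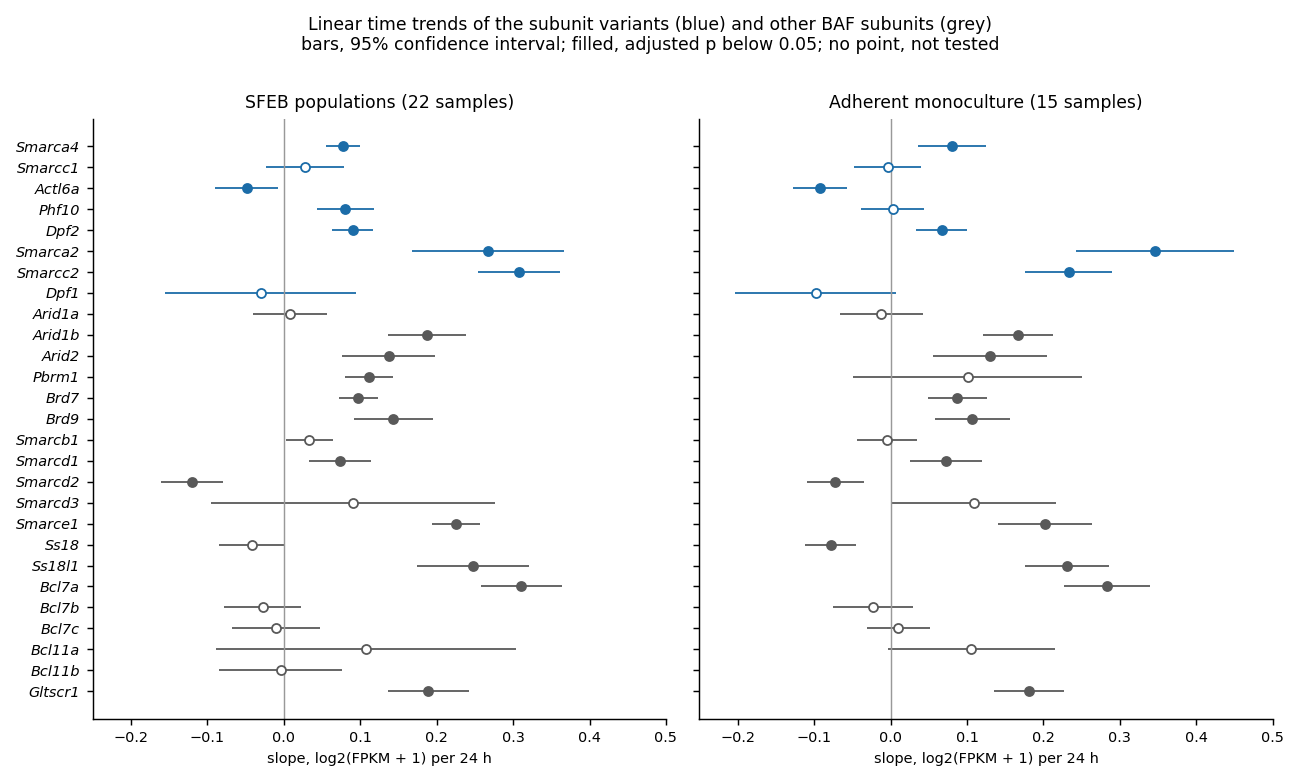
Slope of log2(FPKM + 1) per 24 h (x axis) of the tested subunit variants (blue) and other BAF subunits (grey) in SFEB populations (22 samples, left) and adherent monoculture (15 samples, right); bars are 95% confidence intervals, filled points have an adjusted p below 0.05, and a row without a point was not tested. Smarca2 (0.27 and 0.35) and Smarcc2 (0.31 and 0.23) had the largest slopes of the 8 variants that passed the filter. Actl6a (-0.05 and -0.09) was the only one of them with a negative slope that passed the threshold. The slopes of Dpf1 (-0.03 and -0.10) were also negative but did not pass.

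Genes most like Actl6a and Actl6b were ranked by Pearson r of log2(FPKM + 1) over the 22 SFEB populations, as a description. For Actl6b these were Gria2 (r = 0.994, and 0.976 over the 15 adherent samples), Rab3c (0.994 and 0.978), Chl1 (0.990 and 0.967), Disp2 (0.986 and 0.956) and Resp18 (0.976 and 0.976). Gria2 encodes a glutamate receptor subunit, Rab3c a GTPase of synaptic vesicles and Chl1 an adhesion molecule of neurons. For Actl6a they were Slc25a15 (0.934 and 0.898), Prmt3 (0.928 and 0.923), Asxl1 (0.912 and 0.512), Smpdl3b (0.905 and 0.903) and Gm6644 (0.904 and 0.912), of which Prmt3 encodes an arginine methyltransferase and Gm6644 is a transcribed pseudogene. The samples share their time order and the batch correction, and for Actl6b the 216 h sample lies far from the rest.

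The E14 libraries ask whether loss of Fyn alters the course of differentiation, and here whether the subunit variants differ with it. Fyn was 3.21, 2.74 and 4.00 FPKM in the WT libraries of day 0 and 9.44, 4.54 and 6.76 at day 4, and 0.598, 0.598 and 1.10 in the KO of day 0 and 1.19, 1.13 and 1.58 at day 4. The KO libraries were thus all below the WT libraries, with some signal left in a gene of which the deletion took a part. By day 4 Actl6b was still at or near 0, with 0 in every day 0 library of both genotypes and at most 0.150 FPKM at day 4, and Dpf3 was at most 1.53 FPKM, so neither was tested.

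Smarca2 was the one member called between day 0 and day 4. In WT it was 0.271, 1.01 and 0.949 FPKM at day 0 and 6.35, 2.16 and 2.96 at day 4, and in KO 0.0766, 0.212 and 0.363 at day 0 and 1.41, 1.16 and 2.00 at day 4. Day 4 libraries lay above day 0 libraries in both genotypes, but the share of all genes that separate in this way was not counted. In limma over the 12 libraries Smarca2 rose by 1.403 on the log2 scale in WT (SE 0.310, adjusted p = 0.00784), 1 of 8 members tested beside 25.8% of 12257 genes called. In KO it rose by 1.04 (SE 0.310, adjusted p = 0.0359), 1 of 8 members beside 19.3% of genes called. With a pseudocount of 0.1 the differences were 2.23 and 2.43, since the pseudocount of 1 understates changes at these low levels. The KO call was lost with no filter on low values (adjusted p = 0.0524), after quantile normalization (0.124) and without any of 5 of the 6 KO libraries (up to 0.124). The WT replicate with 6.35 FPKM also had the highest sum of neural progenitor markers, 182 FPKM against 23.3 and 50.6 in the other WT libraries of day 4, and without it the WT difference was 1.05 (adjusted p = 0.023).

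Between genotypes no member passed, with 0 of 8 called at day 4 beside 0.0734% of genes, 0 of 8 at day 0 beside 0.171% and 0 of 8 in the genotype by day interaction beside 0%. At an unadjusted p under 0.05 the limma counts were 1 of 8 at day 4 beside 12.1% of genes, 0 of 8 at day 0 beside 14.6% and 0 of 8 in the interaction beside 4.38%, so that the 1 member is about the share over all genes. It was Smarca2, at 1.16 to 2.00 FPKM in the KO and 2.16 to 6.35 in WT at day 4, a difference of -0.85 (95% confidence interval -1.53 to -0.17, limma adjusted p = 0.295), and of -0.50 without the WT replicate of 6.35 FPKM. Its interaction term was -0.36 (interval -1.32 to 0.60, adjusted p = 0.997), and it was -0.0067 without that replicate, -0.62 without WT replicate 2 of day 4 and -0.15 without WT replicate 1 of day 0. With a pseudocount of 0.1 its sign turned (0.20). The neural progenitor markers moved with it, at 10.1 to 31.2 FPKM in the KO and 23.3 to 182 in WT at day 4, while the neuron markers summed in KO to 122 to 211 FPKM at day 0, mostly Stmn2, and 55.1 to 70.8 at day 4, and the part of either list in it was not tested.

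The other 7 members tested showed no call in E14 cells. Smarcc2 was 9.65, 11.2 and 13.4 FPKM in WT at day 0 and 15.998, 6.90 and 12.4 at day 4, and 12.2, 12.8 and 6.74 in KO at day 0 and 6.81, 7.498 and 8.27 at day 4, with groups that overlapped in every comparison. Its KO minus WT difference at day 4 was -0.52 (interval -1.14 to 0.11, adjusted p = 0.501), -0.27 without the WT replicate of 15.998 FPKM and -0.83 without that of 6.90. Dpf1 was 2.49, 1.53 and 2.14 FPKM in WT at day 0 and 3.08, 3.51 and 3.02 at day 4. Its difference of 0.47 had an interval of -0.60 to 1.55 (adjusted p = 0.516). At day 4 its KO libraries were at 2.27, 2.81 and 1.18 FPKM. The difference from WT was -0.48 (interval -1.56 to 0.59, adjusted p = 0.754), or -0.25 without the KO replicate of 1.18 FPKM. The spread behind these intervals is shared by the 4 groups, and KO replicate 3 of day 0 had 7.91 FPKM against 1.14 and 0.671 in the others. The same library had the highest Phf10 of the 12, 59.2 against 28.6 and 36.6 FPKM. Without it 3063 genes were called in KO over time, against 2370 with it. The lowest r between replicates of any group was also in KO at day 0 (0.931). Actl6a lay between 61.8 and 84.5 FPKM in all 12 libraries, with day 4 minus day 0 differences of 0.05 in WT (interval -0.23 to 0.34) and 0.06 in KO (interval -0.22 to 0.35). Smarca4 lay between 30.1 and 49.0 FPKM, Smarcc1 between 48.0 and 69.3, and Dpf2 between 27.7 and 43.7.

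**Figure D4:**
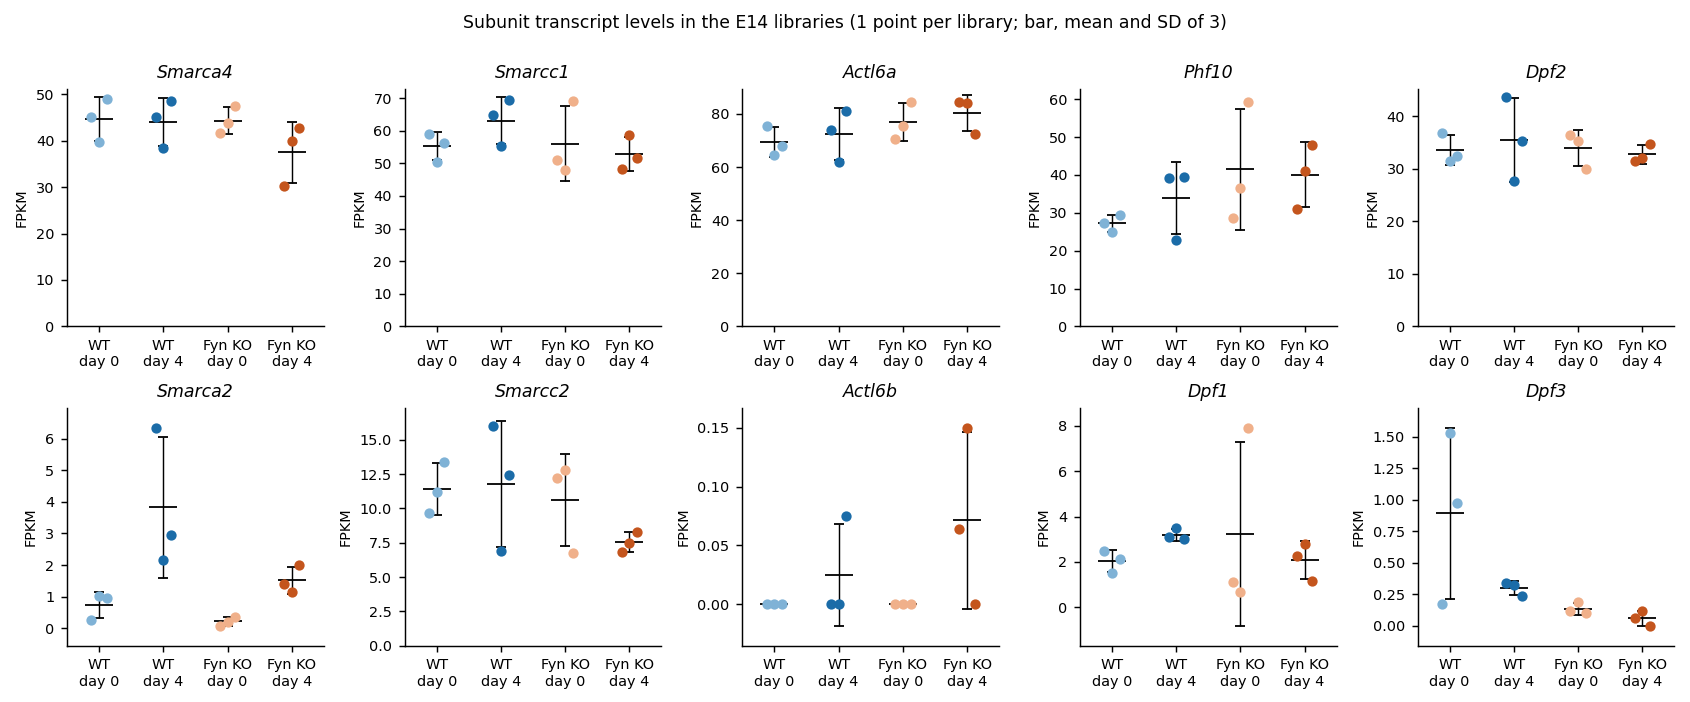
FPKM (y axis, linear) of each member in the 12 E14 libraries, grouped as WT or Fyn KO at day 0 or day 4 (x axis), 1 point per library, with the mean and SD of 3. Smarca2 at day 4 (2.16 to 6.35 FPKM in WT, 1.16 to 2.00 in KO) lies above day 0 in both genotypes, while Actl6b does not exceed 0.150 FPKM.

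Among the other 20 BAF subunits in E14 cells, 19 were tested; 5 rose and 1 fell from day 0 to day 4 in WT, beside 25.8% of all genes called, and 3 rose and 1 fell in KO, beside 19.3%. The median difference was 0.28 in WT and 0.13 in KO, against 0.08 and 0.05 over all genes. Bcl11a, a zinc finger subunit of neural complexes, rose by 2.71 in WT and 1.87 in KO, and Arid2, which belongs to the PBAF form, rose by 1.43 and 1.19. Gltscr1l fell by 1.07 and 1.26. Rest fell in WT by 0.91 (adjusted p = 0.0213), from a mean of 45.2 FPKM ± 8.53 (SD, n = 3) to 23.9 ± 6.46, and its difference in KO was -0.64 (adjusted p = 0.0945), from 46.4 ± 13.9 to 29.0 ± 5.43. The genotype by day interaction of Rest was 0.27 (interval -0.50 to 1.04, adjusted p = 0.997). None of the 19 passed between genotypes.

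Single cells were deposited as log10(RPKM + 1) after quantile normalization. The 8 cells of a time point are 1 sample, so trends were tested on the 8 time-point means and values within a time point are described only. No member passed over the 8 time points (0 of 8 in limma), beside 1.67% of 11449 genes rising and 1.07% falling, and 2 of 8, Smarca2 and Actl6a, had an unadjusted p under 0.05, beside 17.2% of genes. Genes above 0 per cell had medians from 6145 (144 h) to 8972 (0 h). One cell of 216 h, cell 16, lay apart from the others, with Pou5f1 at 1.94 and Utf1 at 3.10, both pluripotency genes, so 216 h is also given without it.

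Actl6a was above 0.5 RPKM in every one of the 64 cells. Its median was 1.98 at 0 h, between 1.97 and 2.29 from 9 to 106 h, 1.62 at 144 h and 0.944 at 216 h, and 0.982 without cell 16. At 216 h the cells ran from 0.610 to 1.82, below the median of each time point up to 106 h. The slope of the time-point means was -0.29 log2 per 24 h (interval -0.51 to -0.07, adjusted p = 0.139), and -0.12 without 216 h.

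Smarca2 was above 0.5 RPKM in 9 of 64 cells, of which 5 were cells of 216 h (5 of 8, exact 95% binomial interval 24.5% to 91.5%, covering counting error only). At 216 h the 8 cells held 1.97, 0.954, 0.676, 0.631, 0.397, 0.0869, 0 and 0. At 0, 38, 84 and 106 h it was above 0.5 RPKM in 0 of 8 cells, which at 3 counts of the total allows a share of up to 37.5% each. The slope was 0.17 (adjusted p = 0.0577), passed the threshold without cell 16, which held 0 (0.19, adjusted p = 0.0382), and was 0.0055 without 216 h, so that it rests on that time point.

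Smarcc2 was above 0.5 RPKM in 22 of 64 cells, with 1 of 8 at 38 h, 4 of 8 at 106 h, 2 of 8 at 144 h and 5 of 8 at 216 h. Its median was 0.00686 at 0 h, 0.429 at its highest at 106 h, 0.0360 at 144 h and 0.198 at 216 h (0.206 without cell 16). Its slope was 0.12 (interval -0.06 to 0.29, adjusted p = 0.512). Smarca4 and Dpf2 were above 0.5 RPKM in 63 cells each. The medians of Dpf2 were 1.36 at 0 h, 1.61 at 9 h and 0.456 at 216 h (0.444 without cell 16), the lowest of the 8. The SFEB populations had their highest Dpf2 level at 216 h, where cell 16 held 2.29 and cell 4 held 1.84. Its slope was -0.18 (interval -0.42 to 0.05, adjusted p = 0.439). Smarcc1 was above 0.5 RPKM in 53 cells, Phf10 in 16 and Dpf1 in 9, the last with at most 0.857.

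**Figure D5:**
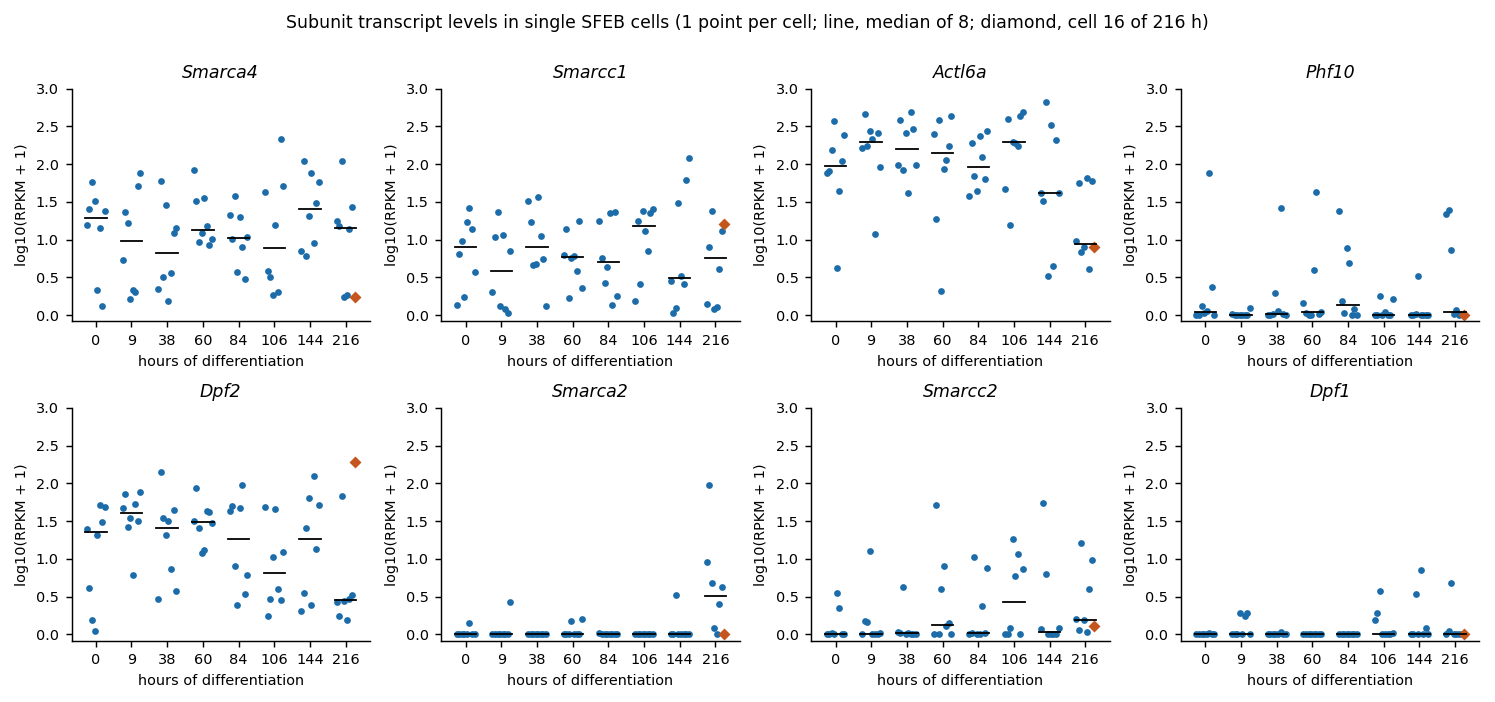
Log10(RPKM + 1) (y axis) of the 8 members in the single-cell table against hours of differentiation (x axis, evenly spaced time points), 1 point per cell, with a line at the median of 8 cells and a diamond for cell 16 of 216 h. The median of Actl6a is 0.944 at 216 h against 2.29 at 106 h, and Smarca2 has a median of 0.514 at 216 h.

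Populations and cells of the parallel series can be set side by side at 216 h, without a test since the tables were normalized separately. Smarca2 had its highest level of the course there in both, and Actl6a its lowest. Within the 8 cells Actl6a was lowest in cell 12 (0.610) and cell 4 (0.830), which had the highest Tubb3, a neuron marker (3.01 and 3.44). It was nearly as low in cell 6 (0.897, with Tubb3 at 1.49) and cell 16 (0.905, with Tubb3 at 0.353). Smarca2 was highest in cell 2 (1.97) and cell 1 (0.954), whose Tubb3 was 0.888 and 1.41, ahead of cell 4 (0.676), cell 13 (0.631) and cell 12 (0.397).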

How the data were processed

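RNA-seq had been run on 22 SFEB populations, 15 adherent monoculture samples, 12 E14 libraries and 64 single cells, from Nextera XT libraries on HiSeq2000. Per the study's methods the authors mapped single-end reads to mm9 with Tophat and computed levels with Cufflinks; per the labels the tools were TopHat2 2.0.8b and Cufflinks 2.1.1, with mm10 for the E14 libraries. The adherent and E14 values are FPKM as the authors deposited them. Per E14 library these summed to 525639 to 909369, with up to 28.5% of a sum in 1 gene, and the main fits did not rescale them. The SFEB population values are FPKM that the authors deposited after ComBat batch correction (named in the table's title, with batches not stated), and the 1256 values below 0 were set to 0 here. The single-cell values were deposited by the authors as log10 of RPKM + 1 after quantile normalization between cells. The study states a minimum number of reads per library for its single cells and parallel populations, but FPKM keeps no counts, so the depth behind each value is unknown here, and in E14 libraries 6633 to 7982 of 23107 genes were listed at 0.

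Groups came from the labels. All tests used limma 3.58.1 in R 4.3.3 on log2(value + 1), two-sided, with trended variance, Benjamini-Hochberg adjustment over all genes tested and a threshold of 0.05. E14 groups were fitted in 1 model of 12 libraries, keeping genes that reached 1 FPKM in 3 or more libraries. Time trends were linear in hours (log2 per 24 h), with series as a term in the SFEB populations, over genes above 0.5 in at least 8 samples, and in cells over the mean of 8 cells at each of 8 time points. Tables were normalized separately, so no test crosses them. The fits were tested on simulated data. Python 3.11.15, numpy 2.4.6, pandas 2.3.3, scipy 1.17.1 and matplotlib 3.10.9 were used for the rest. Promoters came from RefSeq (GRCm38.p6) and gene coordinates from the GENCODE annotation of mm9, in which all 10 members matched by symbol; the builds are not mixed.

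The members and gene lists were chosen with earlier results of these data known. Named were all members, Rest, Ss18, Ss18l1, Smarcd1 and Smarcd3, and the 5 genes most like Actl6a and Actl6b; Smarcd2, Smarce1, those of the closing paragraphs, Bcl11a, Arid2 and Gltscr1l were named after their values were seen. Equal replicate numbers were checked by the correlation of library residuals. It was 0.199, 0.220 and 0.224 between WT at days 0 and 4, and 0.136, 0.258 and 0.240 between WT and KO at day 4. KO at days 0 and 4 gave 0.0239, 0.0899 and 0.00112, and WT and KO at day 0 gave 0.0628, 0.339 and -0.115. Residuals of 3 libraries sum to 0 within a group, so correlations of this size do not establish a pairing. The labels give no source for one, and the main fits used none.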

Additional observations from a re-analysis of the deposited data

How the results depend on the processing

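The SFEB and adherent trends of Smarca4, Smarca2, Smarcc2 and Dpf2 kept their direction and their side of the threshold under every alternative run, except that the adherent Smarca4 trend missed it from 34 h on (0.05, adjusted p = 0.131). SFEB Smarcc1 reversed from 34 h on (-0.0765), an alternative chosen after seeing the data, as were the fits with squared hours and the adherent fits without 144 and 216 h and, with no filter, without 144 h. The adherent Dpf1 trend passed the threshold by rank of hours (adjusted p = 0.0108), after quantile normalization (0.0192) and without 144 and 216 h (0.000304). With at least 5 FPKM required, 0 members were called for WT or for KO from day 0 to day 4, since Smarca2 was no longer tested; KO also gave 0 with no filter and after quantile normalization. The replicate block changed no call of a member in WT or KO; among all genes it gave 38 for KO against WT at day 0 (21 without it) and 2 in the interaction. Over all genes, KO against WT at day 4 gave 24 with no filter, 18 at 5 FPKM, 17 after quantile normalization and 5 in a fit of the 2 groups alone, against 9; at day 0 it gave 35 with no filter and 2 in a fit of the 2 groups; the interaction gave 1 with no filter. The SFEB parallel series alone called 4914 genes. Single-cell means called 96 genes by rank of hours, 488 genes and 1 member without cell 16, 18 on log2 of the mean RPKM, and 0 without 216 h or from 34 h on. Leaving out 1 library at a time gave 1831 to 3528 genes in WT over time, 1041 to 3063 genes and 0 to 1 members in KO over time, 5 to 14 for KO against WT at day 4, 4 to 128 at day 0 and 0 to 4 in the interaction; leaving out 1 single-cell time point gave 0 to 117 genes. Quantile normalization lowered the share of calls that were higher from 60.1% to 50.7% in WT, 60.9% to 51.0% in KO, 56.5% to 49.3% in SFEB and 60.1% to 48.0% in adherent culture. Precision is limited by 3 libraries per E14 group and 1 per time point.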

Other observations

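Trends of other paralogues of the complex are given here, named after their values were seen. Bcl7a rose by 0.31 log2 per 24 h in SFEB (adjusted p = 1.79e-09) and by 0.28 in adherent culture (adjusted p = 3.68e-07), from 5.10 to 23.8 FPKM and from 3.65 to 23.2 FPKM between 0 h (in SFEB the mean of both 0 h samples) and 216 h. Its paralogues Bcl7b (-0.03 and -0.02) and Bcl7c (-0.01 and 0.01) did not pass in either course. Arid1b, one of the large subunits that define the BAF form of the complex, rose by 0.19 and 0.17 (adjusted p = 1.01e-06 and 7.96e-06), from 4.58 (mean of 0 h) to 10.9 FPKM in SFEB and from 4.12 to 12.4 in adherent culture. The slopes of Arid1a, its alternative, were 0.01 and -0.01 (adjusted p = 0.779 and 0.705). Brd9 and Gltscr1, which mark the non-canonical form of the complex, rose in both courses, Brd9 by 0.14 and 0.11 and Gltscr1 by 0.19 and 0.18. The differences between paralogues were not tested.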
